A study of Mus musculus with 3 samples.

Results

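The nuclei described here were macrophage nuclei with a high level of Mmp12 in abdominal aortae of ApoE-/- mice, 2207 of the 30730 nuclei that passed the quality limits. They were chosen by a fixed rule on their own unique molecular identifiers (UMIs, one per captured RNA molecule). Each nucleus had 500 UMIs or more, 300 genes or more and less than 5% mitochondrial UMIs. It also had a UMI of at least 2 of the 6 macrophage genes Csf1r, Mertk, Adgre1, Ms4a7, Cd68 and Ctss, at least 3 Mmp12 UMIs and at least 10 Mmp12 UMIs per 10000, and fewer than 10 UMIs per 10000 of F13a1, a gene of resident macrophages. The aneurysm library held 57 such nuclei of 5707, the smoke library 1207 of 14001 and the room air library 943 of 11022. Mmp12, F13a1 and the 6 macrophage genes chose the nuclei, so their values below describe the choice.

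All 3 groups were ApoE-/- mice of the C57Bl/6 strain on a high-fat diet for 20 weeks, and there was 1 library of nuclear RNA per group: cigarette smoke with an abdominal aortic aneurysm, cigarette smoke without one, and room air. ApoE-/- mice lack a working apolipoprotein E in every cell, clear lipoprotein remnants poorly and form atherosclerotic plaques. The sources used here do not give the age and sex of the mice or the number of animals in each library. Aortae were frozen before lysis, and nuclei were bound to anti-nucleus beads on a column, a step that may alter which cell types are recovered. With 1 library per group no difference has a replicate check and no test was made. Every interval below is a 95% interval for counting error only, and group, animal and library cannot be told apart.

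Plaque macrophages take up modified lipoproteins through scavenger receptors, break down their cholesterol esters in lysosomes and become foam cells. Macrophage elastase, the product of Mmp12, is a secreted metalloprotease that cleaves elastin, the protein of the elastic layers of the aortic wall. Loss of those layers is a hallmark of aortic aneurysm.

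Mmp12 lies in a cluster of metalloprotease genes on chromosome 9 with Mmp13, Mmp3 and Mmp10, whose levels are given below. Their promoters are shown because several genes of this cluster are known targets of AP-1, a transcription factor of the Fos and Jun families, and the levels of Fos and Jun family genes differed between the libraries. The following RefSeq sequences from build GRCm38.p6 are the 80 bases before the start of each gene, on the + strand, at chr9:7347294-7347373, chr9:7272434-7272513, chr9:7445742-7445821 and chr9:7502262-7502341. Capitals mark the letters TGANTCA, the usual form of the AP-1 site, searched on both strands, which read alike.
Mmp12: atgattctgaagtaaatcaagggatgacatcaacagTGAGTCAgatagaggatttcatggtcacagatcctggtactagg
Mmp13: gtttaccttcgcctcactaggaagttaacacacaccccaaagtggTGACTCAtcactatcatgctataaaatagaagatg
Mmp3: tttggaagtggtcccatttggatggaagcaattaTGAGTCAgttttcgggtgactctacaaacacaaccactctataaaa
Mmp10: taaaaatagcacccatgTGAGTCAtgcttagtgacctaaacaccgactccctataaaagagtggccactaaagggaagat

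The match began 44 bases before the start of Mmp12, 35 before that of Mmp13, 46 before that of Mmp3 and 63 before that of Mmp10. The other listed start of Mmp12 had no match. Among 32851 RefSeq promoters of 27025 genes, 2.11% held these letters in the 80 bases before the start and 7.81% within 300 bases around it. A match describes letters only and does not show that a factor binds there. No link between Fos or Jun family genes and the levels of these metalloproteases was tested.

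The aneurysm library was the shallowest, with 15634797 UMIs on 7348 barcodes, against 117247048 UMIs on 14859 barcodes in the smoke library and 73891039 UMIs on 13189 barcodes in the room air library. Mmp12-high nuclei had a median of 2136, 10897 and 7158 UMIs in the aneurysm, smoke and room air libraries, with 1179, 3303 and 2696 genes and 0.531%, 0.149% and 0.382% of UMIs from mitochondrial genes. Their summed depth was 158930, 15603254 and 9231668 UMIs, so values from the aneurysm library rest on far fewer molecules. No Mmp12-high nucleus shared its barcode with one of another library, although 17 kept barcodes were shared by the aneurysm and smoke libraries, 36 by the smoke and room air libraries and 26 by the aneurysm and room air libraries. Mmp12-high nuclei that shared a barcode with any kept nucleus of the other library numbered 2 for the aneurysm and smoke pair, 7 for the smoke and room air pair and 0 for the aneurysm and room air pair. Apoe had 2, 95 and 52 UMIs in these nuclei, 12.6, 6.09 and 5.63 CPM (counts per 1e6 UMIs). The 3′ reads may lie outside the deleted part of the gene, so this does not check the genotype.

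Mmp12-high nuclei were rarer in the aneurysm library than in either other library. They made up 0.999% (0.757 to 1.29%) of kept nuclei in the aneurysm library, 8.62% (8.16 to 9.10%) in the smoke library and 8.56% (8.04 to 9.09%) in the room air library. The share in the aneurysm library was 0.116 (0.0872 to 0.151) of that in the smoke library and 0.117 (0.0877 to 0.153) of that in the room air library, whereas smoke over room air was 1.01 (0.925 to 1.10). Depth moved this value. When each nucleus was thinned at random to 1500 UMIs and the rule applied again, 29 of 2714 nuclei (1.07%) passed in the aneurysm library, 638 of 12364 (5.16%) in the smoke library and 463 of 8985 (5.15%) in the room air library. The thinned ratio was 0.207 (0.138 to 0.300) for aneurysm over smoke, 1.00 (0.887 to 1.13) for smoke over room air and 0.207 (0.137 to 0.302) for aneurysm over room air.

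Macrophage nuclei as a whole were also fewer in the aneurysm library, where 1067 of 5707 kept nuclei had at least 2 of the 6 macrophage genes, against 9363 of 14001 in the smoke library and 6473 of 11022 in the room air library. Among nuclei with at least 2 of the 6 macrophage genes, Mmp12-high nuclei made up 5.34% (4.07 to 6.87%) in the aneurysm library, 12.9% (12.2 to 13.6%) in the smoke library and 14.6% (13.7 to 15.5%) in the room air library. Thinned, these shares were 6.67%, 10.9% and 11.5%, a ratio of 0.609 (0.405 to 0.883) for aneurysm over smoke, 0.954 (0.845 to 1.08) for smoke over room air and 0.581 (0.385 to 0.846) for aneurysm over room air. At full depth these ratios were 0.414 (0.312 to 0.541), 0.885 (0.812 to 0.965) and 0.367 (0.276 to 0.479). The aneurysm library was lowest at both depths and with both denominators. The smoke and room air shares of all kept nuclei could not be told apart, and smoke was the lower of the pair among macrophage-gene nuclei at full depth.

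**Figure D1:**
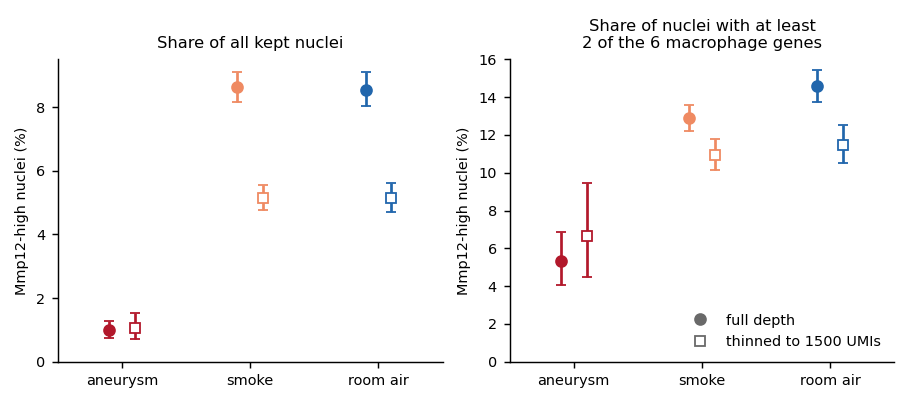
Share of Mmp12-high nuclei (percent, with 95% Clopper-Pearson intervals) in each library, of all kept nuclei on the left and of nuclei with at least 2 of the 6 macrophage genes on the right. Filled circles show full depth and open squares nuclei thinned to 1500 UMIs; the aneurysm library sits at 0.999% and 1.07% on the left, below the other libraries at 5.15% or more.

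The level of Mmp12, which chose the nuclei, is given here as a description. Mmp12 per 10000 UMIs had a lowest, median and highest value of 10.5, 31.0 and 107 in the aneurysm library, 10.0, 22.7 and 209 in the smoke library and 10, 24.6 and 125 in the room air library. The median nucleus held 7, 25 and 18 Mmp12 UMIs, and 9, 40 and 44 nuclei held exactly the 3 that the rule asks for. Nuclei at 40 or more Mmp12 UMIs per 10000 made up 36.8% of Mmp12-high nuclei in the aneurysm library, 23.8% in the smoke library and 24.5% in the room air library. All Mmp12-high nuclei together held 42.2%, 78.0% and 79.3% of all Mmp12 UMIs of the kept nuclei of their library.

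Near the threshold of 10 per 10000 the counts ran on without a gap. Between 10 and 12 per 10000 there were 1, 143 and 98 nuclei inside the rule, and between 8 and 10 there were 1, 184 and 106 outside it, in the aneurysm, smoke and room air libraries. Another 32, 109 and 81 nuclei passed all else but held fewer than 3 Mmp12 UMIs, and 30, 71 and 69 lacked the macrophage genes. The F13a1 limit alone removed 1, 8 and 4 nuclei. Summed over the Mmp12-high nuclei Mmp12 was at 3171, 3213 and 3297 CPM, against 18.5, 58.2 and 59.5 CPM in nuclei with endothelial markers and at most 1 of the macrophage genes, which should lack it. Thinned to 1500 UMIs, 2.87%, 11.6% and 9.83% of these endothelial-marker nuclei had a Mmp12 UMI. Chosen alike in the smoke library, nuclei with smooth muscle, adipocyte and fibroblast markers had Mmp12 at 53.3, 55.0 and 68.8 CPM. Those with T or NK markers had 157 CPM and a thinned share of 22.6%, near the 161 CPM and 19.7% of other macrophage nuclei there. Shares at these levels are read as background, which thus differed between cell classes. Nuclei carry no position, so whether they lay in plaque was not measured.

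The 6 macrophage genes were part of the rule, so their shares describe the nuclei and do not test the label. Mertk, a receptor for dying cells, was detected in 93.0%, 94.9% and 95.02% of Mmp12-high nuclei of the aneurysm, smoke and room air libraries, and Ctss, cathepsin S, in 78.9%, 96.6% and 93.7%. Adgre1, which encodes F4/80, was detected in 33.3%, 54.5% and 44.1%. Csf1r, the receptor that macrophages need to survive, was detected in 19.3%, 54.9% and 40.6%. These shares are at full depth, which differed between the libraries. In thinned Mmp12-high nuclei Adgre1 was detected in 19.0%, 18.6% and 15.9% and Csf1r in 14.3%, 13.8% and 13.1%. Mertk was then detected in 88.1%, 79.5% and 76.2% and Ctss in 66.7%, 66.4% and 61.3%. Thinned, the aneurysm library was thus not the lowest for any of these genes. At full depth, Mertk was detected in 27.3%, 41.1% and 40.8% of endothelial-marker nuclei and Ctss in 3.22%, 17.1% and 12.8%. Their median depths were 1948, 6875 and 4981 UMIs. In 86.0%, 90.3% and 90.8% of Mmp12-high nuclei the 6 macrophage genes had at least 10 UMIs per 10000 and more UMIs than the markers of each of 8 other cell classes, and such nuclei are called macrophage-led below. The classes were T or NK, B, smooth muscle, fibroblast, endothelial, adipocyte, Schwann or neuron, and neutrophil cells. Dendritic cells and monocytes were not among them, so such nuclei were not removed from macrophage-led others. At full depth 54.4%, 87.8% and 76.0% of Mmp12-high nuclei also held a UMI of at least 2 markers of some other class, in which doublets and free RNA cannot be told apart. Their part in the results was not tested beyond the alternatives that left nuclei out.

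Markers of other cells were present in Mmp12-high nuclei. Summed over the list, endothelial markers stood at 176, 261 and 232 CPM in Mmp12-high nuclei of the aneurysm, smoke and room air libraries, against 2192, 1670 and 1974 CPM in all other nuclei. Fibroblast markers stood at 201, 260.1 and 172 CPM, against 1687, 1351 and 1308 CPM. Smooth muscle markers stood at 62.9, 63.0 and 40.6 CPM, against 861, 819 and 658 CPM. These 3 lists were lower than in all other nuclei of the same library, while macrophage-led others had endothelial markers at 157, 170.5 and 143 CPM. Adipocyte markers stood at 1271, 773 and 675 CPM in Mmp12-high nuclei, against 6555, 1309.6 and 992 CPM in all other nuclei and 707, 684 and 575 CPM in macrophage-led others. Macrophage-led others were chosen partly for few UMIs of these same markers, and Mmp12-high nuclei were not. Marker levels of macrophage-led others therefore describe that choice. At full depth at least 2 adipocyte markers were found in 49.1%, 74.8% and 60.7% of Mmp12-high nuclei. Pparg, a lipid-sensing factor that macrophages also express, gave 76 of the 202 adipocyte-list UMIs in the aneurysm library, 7762 of 12054 in the smoke library and 3816 of 6230 in the room air library. In the aneurysm library Mmp12-high nuclei had no UMI of 2 of 10 endothelial markers (Cdh5 and Tie1), 2 of 10 adipocyte markers (Adipoq and Lep), 5 of 10 smooth muscle markers (Tagln, Cnn1, Synpo2, Myl9 and Des) and 1 of 10 fibroblast markers (Dpt).

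The other genes proposed as markers of these nuclei were each higher in them than in other macrophages, in every library. These markers were chosen with earlier results of these data known, so their values describe the nuclei and do not test the label. Mamdc2 (ENSMUSG00000033207), a secreted proteoglycan, was at 2504, 1822 and 1814 CPM in Mmp12-high nuclei of the aneurysm, smoke and room air libraries, against 544, 725 and 604 CPM in other macrophage-led nuclei. The ratios were 4.61 (4.07 to 5.21), 2.51 (2.47 to 2.55) and 3.00 (2.94 to 3.07). Mfge8 (ENSMUSG00000030605), which bridges dying cells to phagocyte integrins, was at 478, 258 and 295 CPM, against 81.1, 124 and 144 CPM. Ctsl (ENSMUSG00000021477), the lysosomal protease cathepsin L, was at 755, 1130.3 and 812 CPM, against 228, 671 and 503 CPM. The ratios were 5.90 (4.34 to 7.96), 2.08 (1.99 to 2.16) and 2.04 (1.94 to 2.14) for Mfge8 and 3.31 (2.66 to 4.10), 1.68 (1.65 to 1.72) and 1.61 (1.57 to 1.66) for Ctsl, and each interval left out 1.

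Seen nucleus by nucleus, these markers were common but not universal. In nuclei thinned to 1500 UMIs, Mamdc2 was detected in 59.5%, 46.6% and 53.0% of Mmp12-high nuclei, against 31.4%, 22.5% and 23.8% of other macrophage-led nuclei and 3.16%, 4.16% and 5.50% of endothelial-marker nuclei. Mamdc2, Mfge8 and Ctsl were all detected in 14.3%, 8.56% and 11.1% of thinned Mmp12-high nuclei, against 2.10%, 3.41% and 4.01% of other macrophage-led nuclei. None of them was detected in 16.7%, 26.4% and 26.5%, against 53.0%, 52.0% and 50.6%. Single nuclei weighed on the aneurysm values: 1 nucleus held 108 of the 398 Mamdc2 UMIs there.

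Across all genes, a gene was measured in a comparison when at least 10 UMIs were expected on each side at the pooled rate. It was counted as higher or lower when its CPM ratio was at least 1.5 in that direction and the interval left out 1. Against all other nuclei with 2 of the 6 macrophage genes, 120 genes were higher in all 3 libraries and 363 were lower, which is 3.72% and 11.2% of 3227 genes measured in all 3. Many of the lower genes were wall genes: Eln, which encodes elastin itself, was at 18.9, 129.8 and 70.2 CPM in Mmp12-high nuclei, against 590.3, 1197 and 973 CPM in those other nuclei. A comparison with macrophage-led others was therefore added after the data were seen, and against these Eln was at 0.237 in the aneurysm library, 1.37 in the smoke library and 1.02 in the room air library. Mmp12-high nuclei did not have to be macrophage-led, so the limit on markers of other classes held for the comparator only. The part of this 1-sided limit in these ratios was not tested. Against macrophage-led others 49 genes were higher and 88 lower in all 3 libraries, 1.59% and 2.85% of 3083 genes, of which 33 and 41 were shared with the wider comparison.

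A further limit comes from F13a1. Nuclei above the F13a1 limit could not be Mmp12-high, but they made up 26.4% of the macrophage-led others in the aneurysm library, 3.86% in the smoke library and 2.48% in the room air library. Left out, 50 genes were higher and 44 lower in all 3 libraries, 1.64% and 1.44% of 3050 genes. Of these, 44 of the higher and 38 of the lower genes were shared with the 49 and 88 above, so the lower list changed more than the higher one.

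Cd36 and Lpl, which act in lipid uptake, were higher in Mmp12-high nuclei in every library. Cd36, a scavenger receptor for oxidised lipoprotein, was at 755, 665 and 847 CPM in Mmp12-high nuclei of the aneurysm, smoke and room air libraries, against 129, 257 and 278 CPM in macrophage-led others. The ratios were 5.84 (4.59 to 7.40), 2.58 (2.52 to 2.65) and 3.05 (2.95 to 3.15). Lpl, lipoprotein lipase, was at 1289.9, 1067 and 924 CPM, against 398, 633 and 556 CPM. Its ratios were 3.24 (2.74 to 3.81), 1.69 (1.65 to 1.72) and 1.66 (1.62 to 1.71), and both genes kept these directions against macrophage-led others with F13a1 under the limit, at 5.07, 2.61 and 3.03 for Cd36 and 2.50, 1.65 and 1.64 for Lpl. The gap was widest in the aneurysm library for both genes. In thinned nuclei, Cd36 was detected in 52.4% of Mmp12-high nuclei of the aneurysm library, 15.9% of macrophage-led others and 15.8% of endothelial-marker nuclei. For Lpl these shares were 71.4%, 26.6% and 11.6%. Adipocyte markers summed to 1271, 773 and 675 CPM in Mmp12-high nuclei of the aneurysm, smoke and room air libraries. Macrophage-led others had 707, 684 and 575 CPM. Macrophage-led others were chosen partly for few UMIs of such markers, and the part of adipocyte RNA in the gap was not tested. Over the whole list of 16 scavenger and lipid uptake genes, 4 of 9 measured were higher and 1 lower in the aneurysm library (median log2 ratio 0.31), 2 of 14 higher and 2 lower in the smoke library (0.04), and 3 of 14 higher and 2 lower in the room air library (-0.08). The shares over all measured genes were 9.14% higher and 14.6% lower, 5.13% and 6.17%, and 5.81% and 6.49%, and with F13a1 under the limit the list medians were 0.06, 0.03 and -0.09.

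A list of 19 genes of lipid-associated macrophages, chosen with earlier results of these data known, had more higher than lower genes in every library. In the aneurysm library 10 of 13 measured genes were higher and 1 lower, with a median log2 ratio of 1.11, where all genes measured had a median of -0.12, with 9.14% higher and 14.6% lower. In the smoke library 4 of 19 were higher (median 0.46, all genes -0.02, 5.13% higher), and in the room air library 5 of 19 (median 0.43, all genes -0.02, 5.81% higher). Gpnmb, a lysosome-linked glycoprotein of foam cells, was at 2674, 4087 and 3629 CPM, against 939.7, 2892 and 2397 CPM in macrophage-led others. Spp1, osteopontin, was at 2850.3, 1976 and 1695 CPM, against 846, 1319 and 1114 CPM, and 1 nucleus held 150 of the 453 Spp1 UMIs of the aneurysm library. Trem2, the lipid receptor often used to name this macrophage state, was at 69.2, 104 and 73.6 CPM, against 66.5, 91.3 and 72.1 CPM. Its ratios of 1.04 (0.502 to 1.95), 1.14 and 1.02 did not reach 1.5 in any library, and the aneurysm ratio was 0.810 (0.390 to 1.52) with F13a1 under the limit. Under that limit 9 of 14, 3 of 19 and 4 of 19 genes of the list were higher.

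Cholesterol export genes did not separate the nuclei to the same degree. Of 17 listed genes, 4 of 11 measured were higher in the aneurysm library, and 1 of 17, Lpl, in each of the smoke and room air libraries. Of all measured genes, 9.14%, 5.13% and 5.81% were higher in the aneurysm, smoke and room air libraries. With F13a1 under the limit, 2 of 11 listed genes were higher and 1 lower in the aneurysm library. In each other library 1 of 17 was higher. Abca1, the main cholesterol exporter of macrophages, was at 4518, 4531 and 4445 CPM in Mmp12-high nuclei, against 3548, 4254 and 4466 CPM in macrophage-led others. Those ratios were 1.27, 1.07 and 0.995, all under 1.5. The lysosomal acid pump (V-ATPase) list had 8 of 12 measured genes higher in the aneurysm library (median 0.83) and 1 of 18, Atp6v1h, in each other library (medians 0.27 and 0.23). With F13a1 under the limit, 7 of 12 were higher in the aneurysm library (median 0.68) and 1 of 18 in each other library. Atp6v0d2, a subunit of that pump enriched in macrophages and osteoclasts, was at 2083, 2525 and 2637 CPM, against 795, 1694 and 1778 CPM. Its ratio was 2.62 in the aneurysm library, while 1.49 in the smoke library and 1.48 in the room air library were just under the limit.

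Among the matrix proteases, Mmp12 was not alone. Mmp19, a basement membrane protease, was at 107, 83.3 and 104 CPM in Mmp12-high nuclei of the aneurysm, smoke and room air libraries, against 28.5, 27.3 and 31.7 CPM in macrophage-led others. Its ratios were 3.05 (2.82 to 3.30) in the smoke library and 3.28 (2.98 to 3.60) in the room air library, and 3.75 (1.99 to 6.79) in the aneurysm library, where 17 UMIs were too few for it to count as measured. Mmp13, a collagenase encoded beside Mmp12, was at 44.0, 10.8 and 16.6 CPM, against 6.58, 2.55 and 1.72 CPM. It was sparse, with 7, 169 and 153 UMIs from 5.26%, 4.14% and 5.41% of Mmp12-high nuclei, and the ratios were 4.25 (3.34 to 5.44) in the smoke library and 9.61 (6.82 to 13.8) in the room air library. Mmp10, a stromelysin of the same gene cluster, had 1, 33 and 3 UMIs.

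Mmp3, the other stromelysin of the cluster, was not raised. Its ratios over macrophage-led others were 0.861, 0.869 and 0.894. Mmp14, a membrane-bound collagenase, was at 132, 100.4 and 116 CPM, against 118, 100.5 and 128 CPM. Mmp9, gelatinase B, had 0, 0 and 3 UMIs in Mmp12-high nuclei. Over the list of 21 metalloproteases other than Mmp12, 5 of 12 measured genes were higher and 1 lower in the smoke library (median 0.33), and 2 of 9 were higher and 2 lower in the room air library (median -0.15). Over all measured genes, 5.13% were higher and 6.17% lower in the smoke library and 5.81% and 6.49% in the room air library. Only 1 was measured in the aneurysm library.

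Proteases outside that family moved in both directions. Plau, urokinase, which activates plasmin, was at 201, 143 and 172 CPM in Mmp12-high nuclei, against 21.2, 59.9 and 57.7 CPM in macrophage-led others, with ratios of 2.38 (2.25 to 2.52) in the smoke library and 2.99 (2.78 to 3.21) in the room air library. In the aneurysm library it had 32 UMIs and a ratio of 9.50 (5.57 to 16.3), but too few UMIs were expected for it to count. Ctsk, cathepsin K, a collagen-degrading lysosomal protease of osteoclasts, was at 164, 135 and 112 CPM, against 65.0, 60.6 and 60.9 CPM. Its ratios of 2.52 (1.56 to 3.93), 2.23 (2.10 to 2.36) and 1.84 (1.70 to 1.99) all counted as higher. Ctsc, the dipeptidyl peptidase that activates granule proteases, was lower: 18.9, 131 and 138 CPM, against 422, 197 and 235 CPM, ratios of 0.0447, 0.663 and 0.587. With F13a1 under the limit the others were at 174.9, 174.4 and 225 CPM, and the ratios were 0.108, 0.749 and 0.614, so the smoke library no longer counted as lower. Of 13 cathepsins besides Ctss, 3 of 9 measured were higher and 1 lower in the aneurysm library, where 9.14% and 14.6% of all measured genes were. In each of the smoke and room air libraries 2 of 12 were higher and 2 lower, against 5.13% and 6.17% of all genes in smoke and 5.81% and 6.49% in room air. Of 18 genes of protease inhibitors and the plasminogen system, 0 of 2 measured were called in the aneurysm library, 2 of 14 were higher and 1 lower in the smoke library and 1 of 13 higher and 1 lower in the room air library. Timp2, an inhibitor of metalloproteases, had ratios of 1.10, 0.938 and 0.891.

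Several named genes act in the cytoskeleton, adhesion or matrix sugars, a grouping with no list of its own. Chst11, which sulfates chondroitin chains, was at 1000.4, 1285 and 1974 CPM in Mmp12-high nuclei of the aneurysm, smoke and room air libraries, against 338, 585 and 765 CPM in macrophage-led others. Itgb3, the integrin β3 subunit that with αv binds osteopontin and Mfge8, was at 81.8, 94.98 and 124 CPM, against 13.9, 32.7 and 30.3 CPM. Vcl, vinculin of focal adhesions, had ratios of 2.65, 2.26 and 2.71, and Tes, testin of the same structures, 4.80, 2.19 and 2.39. Anxa1, a phospholipid-binding protein that dampens inflammation, was at 491, 533 and 435 CPM, against 163, 271 and 199.6 CPM. Each of these genes but Itgb3, with 13 UMIs in the aneurysm library, counted as higher in all 3 libraries. The list of chemokine receptors and adhesion molecules had 1 of 6 measured genes higher and 1 lower in the aneurysm library (median -0.28), 1 of 15 higher and 6 lower in the smoke library (median -0.48) and 2 of 14 higher and 7 lower in the room air library (-0.45). The shares over all measured genes were 9.14% higher and 14.6% lower, 5.13% and 6.17%, and 5.81% and 6.49%.

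The remaining genes highest by the interval bound nearest 1 were of mixed roles. Tmem178, an endoplasmic reticulum protein known in mice to restrain osteoclast formation, was at 302, 137 and 130.4 CPM in Mmp12-high nuclei, against 61.4, 49.9 and 45.3 CPM in macrophage-led others. Zfp462, a zinc finger protein, had ratios of 4.31, 2.79 and 2.71. Fbxo32, a ubiquitin ligase subunit known from muscle wasting, had ratios of 4.14, 1.84 and 2.04. Prdx1, a peroxiredoxin that removes peroxides, was at 409, 291 and 569 CPM, against 167, 126 and 210.5 CPM, with ratios of 2.44 (1.83 to 3.23), 2.31 (2.22 to 2.40) and 2.71 (2.60 to 2.81). Tenm4, Rassf8, Esd and Myo1d completed the 15 higher genes with ratios between 1.92 and 3.87; of these, Myo1d was lower than in the wider set of other nuclei with macrophage genes, at 0.469 in the smoke library and 0.585 in the room air library. Il7r, the interleukin-7 receptor, and Cd300lb, an activating immune receptor, were named by the wider comparison, and both were higher than in macrophage-led others too, at 3.59, 1.66 and 1.71 for Il7r and 2.38, 1.75 and 1.94 for Cd300lb.

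**Figure D2:**
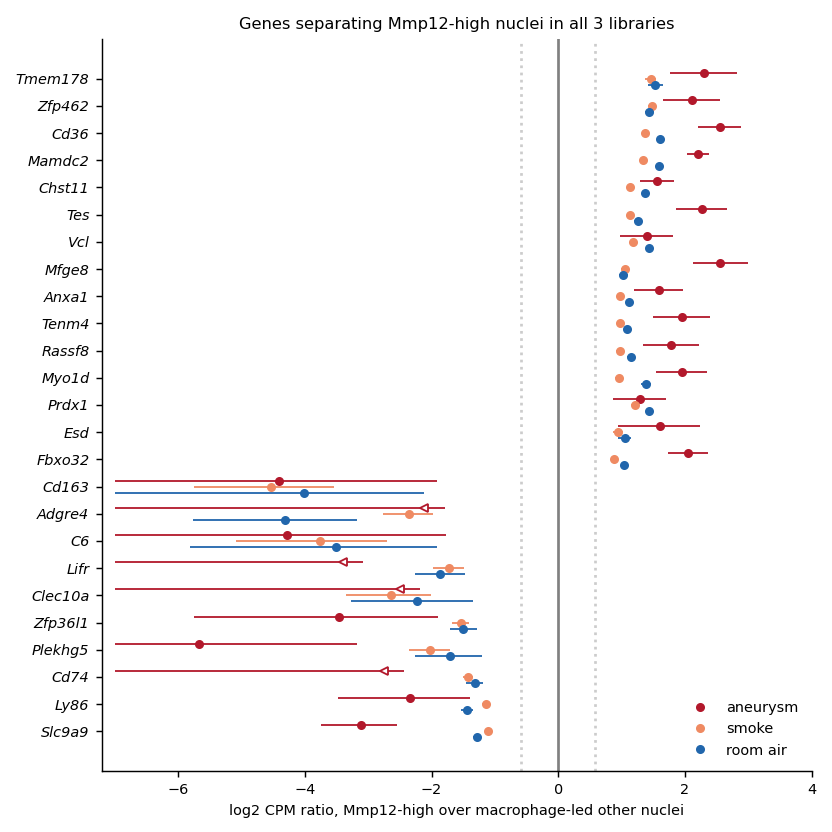
CPM ratio on a log2 axis of Mmp12-high nuclei over macrophage-led others, for the 15 higher and 10 lower named genes in each library, with 95% counting intervals cut at the left edge. Open triangles stand for genes with 0 UMIs in the aneurysm library's Mmp12-high nuclei, set at the floor of 3 UMIs, and dotted lines mark 1.5-fold; the higher genes lie furthest right in the aneurysm library for most genes.

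Genes of antigen presentation were lower in Mmp12-high nuclei than in macrophage-led others, which could include dendritic nuclei. In the aneurysm, smoke and room air libraries, summed dendritic markers stood at 182, 309 and 284 CPM in Mmp12-high nuclei. Macrophage-led others had 357, 477 and 418 CPM, and the part of dendritic nuclei was not tested. Cd74, the invariant chain that escorts class II molecules, had 0 UMIs in Mmp12-high nuclei of the aneurysm library and was at 85.9 CPM in the smoke library and 59.9 CPM in the room air library, against 127, 231 and 149.6 CPM in macrophage-led others. That is at least 6.74-fold lower in the aneurysm library, computed against a floor of 3 UMIs over all its Mmp12-high nuclei, or at least 3.14-fold with F13a1 under the limit, where the others were at 59.3 CPM and the gene no longer counted as measured. The ratio was 0.373 (0.352 to 0.395) in the smoke library and 0.400 (0.366 to 0.438) in the room air library. H2-Aa, a class II chain, had 0 UMIs in the aneurysm library and was at 44.0 and 30.1 CPM in the smoke and room air libraries, against 108 and 80.3 CPM. Ciita, the master regulator of class II genes, was at 6.29 (1 UMI), 22.0 and 28.5 CPM, against 73.8, 65.9 and 67.1 CPM. Of 9 class II genes, 6 of 8 measured were lower in the smoke library (median -1.45) and 7 of 8 in the room air library (median -1.25), where 6.17% and 6.49% of all measured genes were lower. Against macrophage-led others with F13a1 under the limit, 6 of 8 were lower in each (medians -1.32 and -1.19), while none was measured in the aneurysm library.

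Other named genes on the low side were Ly86, Slc9a9, Zfp36l1 and Adgre4. Ly86, a partner of the Toll-like receptor homologue RP105, was at 56.6, 151 and 112 CPM in Mmp12-high nuclei, against 286, 333 and 304 CPM in macrophage-led others. Slc9a9, an endosomal sodium-proton exchanger, was at 157, 339 and 265 CPM, against 1363, 730.5 and 648 CPM. Zfp36l1, which destabilises messenger RNAs, was at 18.9, 33.1 and 22.3 CPM, against 208, 96.3 and 63.1 CPM. These kept their direction against macrophage-led others with F13a1 under the limit, where the ratios were 0.231, 0.464 and 0.372 for Ly86, 0.254, 0.508 and 0.426 for Slc9a9 and 0.171, 0.380 and 0.359 for Zfp36l1. Adgre4, an adhesion receptor of monocytes, had 0 UMIs in the aneurysm library and was at 3.65 and 0.650 CPM in the smoke and room air libraries, against 18.7 and 12.9 CPM.

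For 5 further named genes the difference was smaller or gone once F13a1 was under the limit on both sides. Cd163, the haemoglobin scavenger receptor of resident macrophages, had 1, 8 and 2 UMIs in Mmp12-high nuclei of the aneurysm, smoke and room air libraries, a level of 6.29, 0.513 and 0.217 CPM, against 134, 11.8 and 3.49 CPM in macrophage-led others. With F13a1 under the limit, those others were at 4.02, 0.683 and 0.448 CPM, and the ratios of 1.56 (0.0318 to 15.8), 0.751 (0.297 to 1.68) and 0.484 (0.0521 to 2.22) did not separate from 1. C6 and Plekhg5 likewise had intervals that held 1 in every library. Lifr and Clec10a, with 0 UMIs in the aneurysm library, stayed lower in the smoke library (0.469 and 0.448) and in the room air library (0.384 and 0.362).

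Some monocyte, dendritic and inflammatory genes were lower as well, where 6.17% of all measured genes were lower in the smoke library and 6.49% in the room air library. Of 12 monocyte genes, 8 of 11 measured were lower in the smoke library and 4 of 8 in the room air library, with medians of -2.24 and -1.33. Ccr2, the receptor that recruits monocytes, was at 4.23 CPM in Mmp12-high nuclei of the smoke library and 3.47 CPM in those of the room air library, against 21.0 and 14.8 CPM in macrophage-led others, and had 1 UMI in the aneurysm library. Dendritic cell genes were lower for 8 of 11 measured in each of the smoke and room air libraries. Monocyte and dendritic nuclei were not removed from macrophage-led others, and their part in these values was not tested. Il1b, interleukin-1β, was at 3.40 and 2.06 CPM in the smoke and room air libraries, against 13.4 and 9.62 CPM, and had no UMI in the aneurysm library. Of 19 inflammatory genes, 3 of 17 measured were lower in the smoke library and 7 of 16 in the room air library, and 0 were higher in either. Proliferation genes had 5 of 15 lower and 0 higher in each. Fewer genes of these lists could be measured in the aneurysm library, 1 each for inflammation and proliferation and 2 each for the monocyte and dendritic lists. Summed monocyte markers there were at 528.5 CPM in Mmp12-high nuclei, against 473 CPM in macrophage-led others, and Fn1, fibronectin, gave 81 of their 84 UMIs, 43 of them from 1 nucleus.

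**Figure D3:**
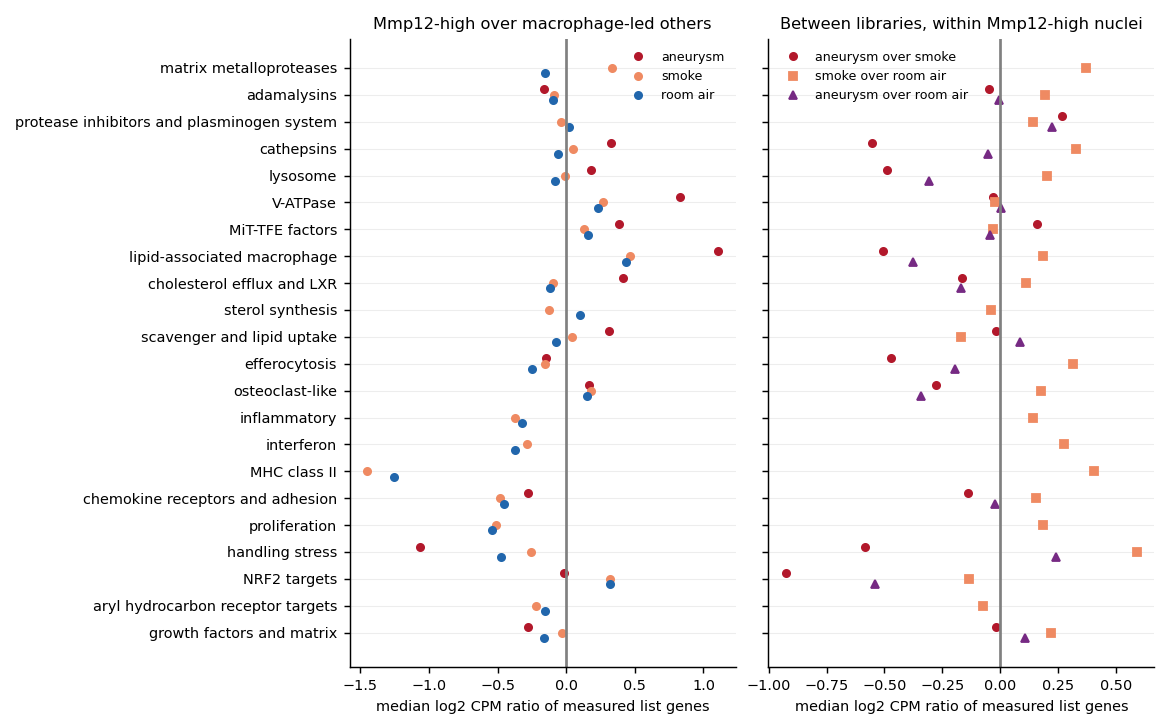
Median log2 CPM ratio of the measured genes of each list with at least 3 measured, for Mmp12-high nuclei over macrophage-led others in each library on the left and between libraries within Mmp12-high nuclei on the right. On the left the class II list lies lowest in the smoke and room air libraries, at -1.45 and -1.25, and the lipid-associated list is at 1.11, 0.46 and 0.43 in the aneurysm, smoke and room air libraries.

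Within the Mmp12-high nuclei, several of the same genes ran with the level of Mmp12. Nuclei were divided at 20 and 40 Mmp12 UMIs per 10000, which put 12, 24 and 21 nuclei in the low, middle and high range in the aneurysm library, 511, 409 and 287 in the smoke library and 375, 337 and 231 in the room air library. Met, the receptor of hepatocyte growth factor, was at 62.8, 109 and 235 CPM from low to high in the smoke library and 179, 267 and 427 CPM in the room air library. Macrophage-led others with no Mmp12 UMI and F13a1 under the limit had Met at 19.5 CPM in the smoke library and 36.1 CPM in the room air library. The high range over the low was 3.75 (3.33 to 4.22) and 2.38 (2.16 to 2.63). Prdx1 ran the same way, at 184, 265 and 486 CPM in the smoke library and 426, 478 and 863 CPM in the room air library.

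Protease genes followed Mmp12 unevenly. Mmp19 was at 45.5, 102 and 118 CPM from low to high in the smoke library and 58.0, 97.2 and 171 CPM in the room air library, a high-to-low ratio of 2.60 (2.24 to 3.02) and 2.95 (2.50 to 3.50). The ratio for Mmp13 was 2.42 (1.71 to 3.46) in the smoke library and 6.66 (3.64 to 13.2) in the room air library. Plau had ratios of 1.61 and 1.86. Mmp14 stayed level at 1.01 and 0.909, and Mmp3 was lower in the high range, at 0.370 and 0.438.

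Cd74 and some genes of wall cells were lower in the higher Mmp12 ranges. The high-to-low ratio was 0.214 and 0.488 for Eln in the smoke and room air libraries, 0.268 and 0.145 for Mecom, 0.202 and 0.201 for Bmp6, and 0.402 and 0.456 for Col1a1, a collagen gene of fibroblasts. Vwf, of endothelial cells, was at 0.991 and 1.21. Their part in the other trends was not tested. Cd74 was at 100.1, 76.8 and 75.8 CPM from low to high in the smoke library and 74.6, 59.7 and 40.9 CPM in the room air library. Macrophage-led others with no Mmp12 UMI had 299.5 and 203 CPM and those with some Mmp12 below the threshold 163 and 97.7 CPM. In the smoke library Mamdc2 was at 417 and 897 CPM in the ranges below the threshold, without and with Mmp12, and at 1392, 2037 and 2209 CPM in those above it. In the room air library Mamdc2 was at 1542, 2211 and 1714 CPM, so the highest Mmp12 range was not its highest. Abca1 had high-to-low ratios of 1.05 and 1.09. The aneurysm library had too few nuclei to order the ranges: its ratio was 2.47 (0.688 to 11.0) for Met and 0.411 (0.0702 to 1.71) for Mmp19. Depth differed too, with median UMIs of 9928, 10334 and 13115 in the smoke library and 6776, 6887 and 8816 in the room air library from low to high, and its part was not tested.

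**Figure D4:**
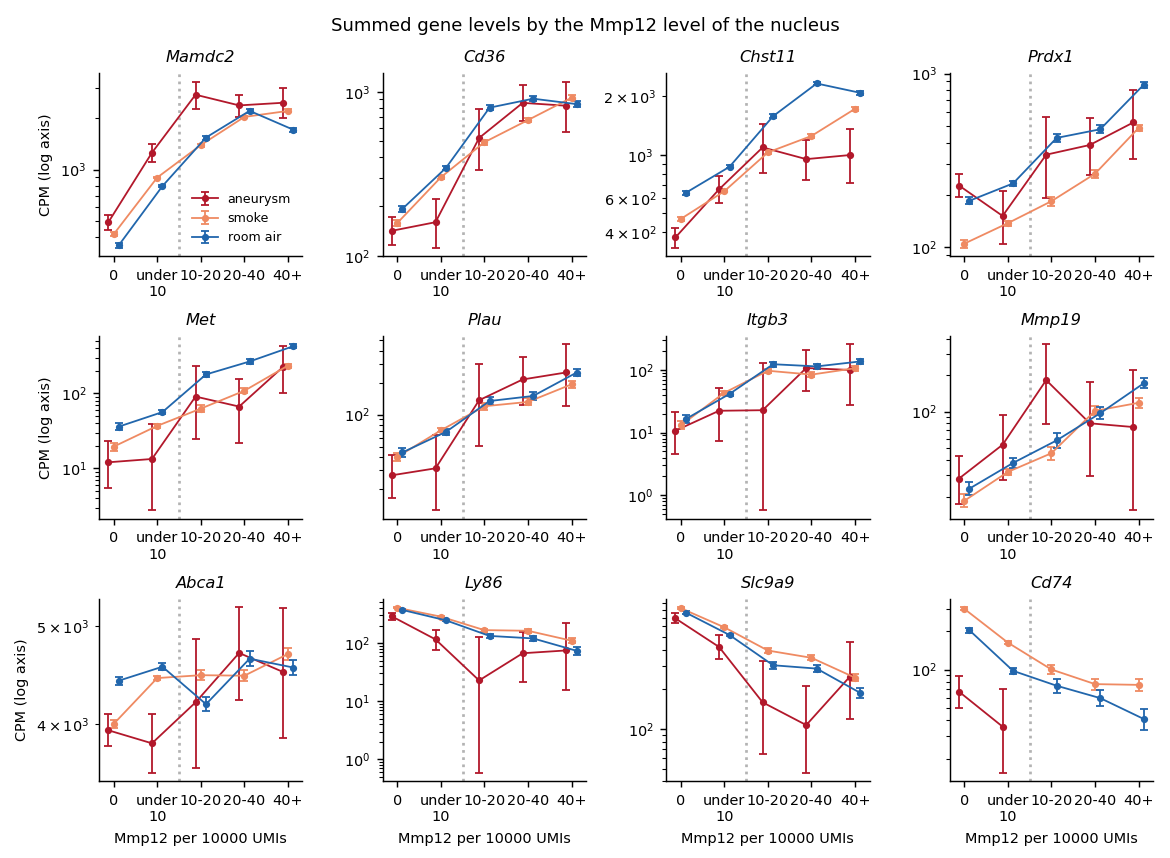
Summed CPM (log axis, 95% Poisson intervals) of 12 genes against the range of Mmp12 UMIs per 10000 in each library. Ranges left of the dotted line are macrophage-led others with F13a1 under the limit and those right of it are Mmp12-high nuclei; ranges with 0 UMIs are not drawn. Met climbs across all ranges in the smoke library, to 235 CPM in the highest, while Cd74 declines to 75.8 CPM.

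Between libraries, Mmp12-high nuclei were compared with each other gene by gene, and the same ratio in macrophage-led others is given beside it, and no difference between these ratios was tested. Aneurysm over smoke counted 172 genes higher and 302 lower of 3006, 5.72% and 10%, so 36.3% of the called genes were higher, and 58.0% when libraries were scaled by the median of ratios. Smoke over room air counted 1073 higher and 430 lower of 13489, 7.95% and 3.19%. Aneurysm over room air counted 144 higher and 245 lower of 3017, 4.77% and 8.12%, with 37.0% of them higher, and 63.2% after scaling by the median of ratios.

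Aneurysm over smoke, most of the named higher genes were also higher in other macrophages. Cmss1 was at 3637 CPM in the aneurysm library and 593 CPM in the smoke library, 6.14-fold (5.63 to 6.67), and 5.17-fold in macrophage-led others. Taco1, a mitochondrial translation activator, was at 2869 and 809.96 CPM, 3.54-fold (3.22 to 3.89), and 2.48-fold in macrophage-led others. Ahnak, a large scaffold protein, was 2.41-fold higher, and 2.62-fold in macrophage-led others. Ppp4r1l-ps, Cdk8, Prpf38b, Camk1d and Cd300lb were 2.05- to 2.84-fold higher. Slc36a4 and Ahnak2, like Cmss1 and Taco1, had smaller ratios in macrophage-led others. Slc36a4, an amino acid transporter, was at 233 and 90.8 CPM, 2.56-fold (1.80 to 3.55) against 0.807-fold. Ahnak2 was at 547 and 244 CPM, 2.24-fold (1.79 to 2.77) against 1.22-fold. The ratio of these ratios was 3.18 (2.15 to 4.70) for Slc36a4 against all macrophage-led others. With F13a1 under the limit, the others had ratios of 0.942 (0.735 to 1.19) for Slc36a4 and 1.54 (1.37 to 1.74) for Ahnak2.

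On the lower side, Ctsc stood out. It had 3 UMIs in the aneurysm library's Mmp12-high nuclei and 2038 in those of the smoke library, 18.9 and 131 CPM, a ratio of 0.145 (0.0298 to 0.423). Macrophage-led others had 422 and 197 CPM, a ratio of 2.15 (1.97 to 2.33), but with F13a1 under the limit they had 174.9 and 174.4 CPM, a ratio of 1.00 (0.858 to 1.17). Igf1, insulin-like growth factor 1, was at 371 and 889 CPM in Mmp12-high nuclei, 0.418 (0.318 to 0.539), and 0.857 in macrophage-led others. Fth1, the ferritin heavy chain, was at 107 and 342 CPM, 0.313 (0.182 to 0.501), and 0.541 in macrophage-led others. Lyz2, lysozyme, was at 0.344 and 0.435 in the same comparisons, and Fabp5, a fatty acid carrier, at 0.285 and 0.356. With F13a1 under the limit, the others had ratios of 0.977 for Igf1, 0.597 for Fth1, 0.430 for Lyz2 and 0.477 for Fabp5. Bcar3, Atp8a1, Abi3 and Abcg3 were lower as well, at 0.125 to 0.377, and Cxcl2 had 1 UMI in the aneurysm library.

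Relative to the smoke library, the lipid-associated, cathepsin, lysosome and NRF2 target lists had more lower than higher genes in the aneurysm library, and these 4 medians kept a negative sign when scaled by the median of ratios. Of all measured genes, 5.72% were higher and 10% lower in the aneurysm library than in the smoke library. Of 16 measured lipid-associated genes 5 were lower and 0 higher than in the smoke library (median -0.51, all genes -0.12), among them Gpnmb at 2674 and 4087 CPM, a ratio of 0.654, against 0.325 in macrophage-led others. Spp1 went the other way, at 2850.3 and 1976 CPM, a ratio of 1.44 that did not reach 1.5. As given above, 1 nucleus held a large part of the 453 Spp1 UMIs of the aneurysm library. Mfge8 was at 478 and 258 CPM, 1.85-fold (1.45 to 2.32) higher, while it was 0.652 in macrophage-led others. With F13a1 under the limit, the others had Mfge8 at 109 and 127 CPM and Gpnmb at 1235 and 2942 CPM. Cathepsins had 3 of 9 lower and 0 higher (median -0.55), lysosomal genes 5 of 20 lower and 2 higher (median -0.49), and targets of the antioxidant factor NRF2 3 of 5 lower (median -0.93). V-ATPase genes were near the background, with 1 of 14 higher and 2 lower (median -0.03). Over the aneurysm and room air pair, where 4.77% of all measured genes were higher and 8.12% lower, lipid-associated genes had 1 of 16 higher, Spp1 at 1.68, and 1 lower, Igf1 at 0.572. That Spp1 ratio includes the same nucleus, and no ratio without it is given. In that pair cathepsins had 0 of 9 higher and 1 lower (median -0.05), lysosomal genes 4 of 17 higher and 0 lower (median -0.31), and NRF2 targets 0 of 6 higher and 2 lower (median -0.54).

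Aneurysm over room air, 6 genes were named in each direction, and these values share the aneurysm library with the comparison above. Atg4a, an autophagy protease, was at 339.8 CPM in the aneurysm library and 79.3 CPM in the room air library, 4.29-fold, and 2.82-fold in macrophage-led others. Smarca2, a chromatin remodeller, was at 610.3 and 275 CPM, 2.22-fold, and Tcirg1, a V-ATPase subunit, at 573 and 288 CPM, 1.99-fold. Cmss1, Taco1 and Cd300lb were 3.03-, 1.98- and 2.05-fold higher. Gsr, glutathione reductase, was at 37.8 and 163 CPM, a ratio of 0.231, and 0.615 in macrophage-led others. With F13a1 under the limit, the others had ratios of 2.97 for Atg4a and 0.782 for Gsr. Ctsc was at 18.9 and 138 CPM, 0.137 (0.0282 to 0.401), and Ldah, Epb41l3, Gsap and Bcar3 were at 0.227 to 0.399.

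Smoke over room air, where both sides are deep, the counting intervals were narrow, and all 20 named genes lay on the same side of 1 in other macrophages. Acod1, which makes itaconate in activated macrophages, was at 4.74 CPM in the smoke library and 40.9 CPM in the room air library, 0.116 (0.0890 to 0.149), and 0.0989 in macrophage-led others. Prdx1 was at 291 and 569 CPM, 0.510 (0.490 to 0.531), and 0.599 in macrophage-led others. Met was at 124 and 280.0 CPM, 0.441 (0.416 to 0.468), and 0.656 in macrophage-led others, with a ratio of ratios of 0.673. Tmem267 was at 25.8 and 287 CPM, 0.0898 (0.0807 to 0.0998), and 0.651 in macrophage-led others. It was concentrated in few nuclei: 19.0% of Mmp12-high nuclei of the room air library had a UMI of Tmem267, and 1 held 344 of the 2648 UMIs. Tmeff1, Clmp, Wnk2, Pgbd5, Scart1 and Tnip3 were lower at 0.283 to 0.441.

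The 3 C1q genes, both ferritin genes and Cxcl2 were higher in the smoke library than in the room air library. C1qc was at 86.9 CPM in the smoke library and 31.7 CPM in the room air library, 2.74-fold (2.41 to 3.12), and 1.89-fold in macrophage-led others. C1qa and C1qb, the other chains of the complement C1q molecule, were 2.26- and 2.17-fold higher. Fth1 was at 342 and 157 CPM, 2.18-fold (2.06 to 2.32), and 2.13-fold in macrophage-led others, and Ftl1, the ferritin light chain, at 538 and 265 CPM, 2.03-fold. Cxcl2, a neutrophil chemokine, was at 64.4 and 25.9 CPM, 2.49-fold, and 2.05-fold in macrophage-led others. Hmga2, a chromatin protein, was at 12.9 and 3.68 CPM, 3.50-fold, and 1.36-fold in macrophage-led others. C79798, Vkorc1, Lysmd4, Slc25a18, Abcg3 and H2bc4 were 2.29- to 7.10-fold higher, the first on 48 UMIs in the smoke library and 4 in the room air library.

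**Figure D5:**
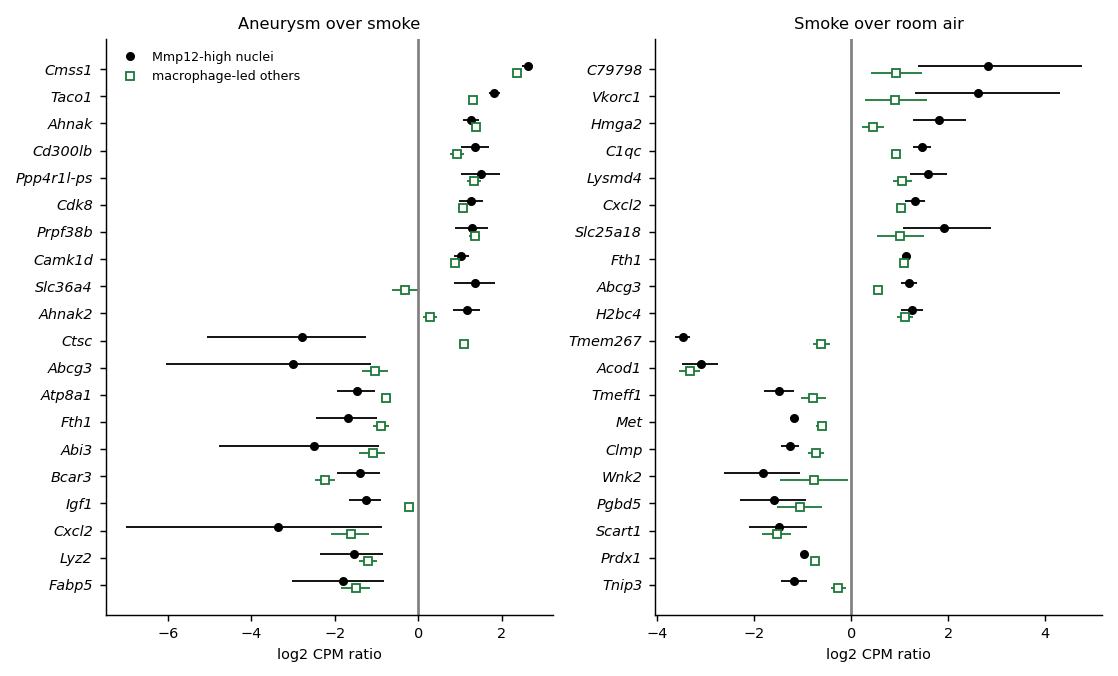
CPM ratio on a log2 axis of the named genes for aneurysm over smoke and smoke over room air, in Mmp12-high nuclei (filled circles) and in macrophage-led others (open squares), with 95% counting intervals cut at the left edge. Most pairs of symbols lie on the same side of 0. For aneurysm over smoke, Ctsc, at 0.145 and 2.15 as ratios, and Slc36a4 do not. With F13a1 under the limit, which is not drawn, Ctsc was at 1.00 in the others.

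Lists between the smoke and room air libraries gave a mixed picture. Of all measured genes, 7.95% were higher and 3.19% lower in the smoke library. The list of genes known to respond to tissue handling and stress had 7 of 14 measured genes higher and 0 lower (median 0.59, all genes 0.02). Fos, a subunit of AP-1, was at 217 CPM in the smoke library and 79.6 CPM in the room air library, 2.73-fold (2.52 to 2.96), and 1.86-fold in macrophage-led others; Fosb, Jun and Junb were also higher. Mmp13 was at 10.8 and 16.6 CPM, 0.654, and 1.48 in macrophage-led others, whereas Mmp10 had 33 and 3 UMIs, 6.51-fold (2.04 to 33.2). A link of these levels to Fos or Jun was not tested. Of 10 measured metalloproteases, 4 were higher and 1 lower. Inflammatory genes had 3 of 16 higher, Cxcl1, Cxcl2 and Cd14, and 4 lower, Tnf, Nos2, Acod1 and Il31ra. Nos2, inducible nitric oxide synthase, had 4 UMIs at 0.256 CPM in the smoke library and was at 6.17 CPM in the room air library. Of the NRF2 targets 2 of 14 were higher, Ftl1 and Fth1, and 2 lower, Hmox1 and Slc7a11. Targets of the aryl hydrocarbon receptor, which senses smoke compounds, had 1 of 5 measured higher, Cyp1b1, and Cyp1a1 had 0, 0 and 1 UMI in Mmp12-high nuclei of the aneurysm, smoke and room air libraries.

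Markers of other cells moved with the comparisons between libraries. Adipocyte markers summed to 1271 CPM in Mmp12-high nuclei of the aneurysm library, against 773 and 675 CPM in those of the smoke and room air libraries. B cell markers summed to 283 CPM in the aneurysm library, against 124 and 73.1 CPM, and Ebf1, which adipocytes and fibroblasts also express, gave 43 of those 45 aneurysm UMIs. Monocyte markers summed to 528.5, 238 and 177 CPM. Among Mmp12-high nuclei, 8 of 10 measured fibroblast markers, 5 of 6 T or NK cell markers and 4 of 8 smooth muscle markers were higher in the smoke library (medians 0.73, 1.47 and 0.58), as were 2 of 10 endothelial markers. Of all measured genes, 7.95% were higher in the smoke library than in the room air library. Summed T or NK markers stood at 63.7 CPM in the smoke library and 41.2 CPM in the room air library. At full depth, nuclei with at least 2 fibroblast markers made up 45.8% of Mmp12-high nuclei in the smoke library and 27.5% in the room air library, and 12.3% in the aneurysm library. Median depth there was 10897, 7158 and 2136 UMIs, and summed fibroblast markers stood at 260.1, 172 and 201 CPM. By CPM the aneurysm library was thus not the lowest. The part of other-class markers in the differences between libraries was not tested beyond leaving out nuclei with at least 2 markers of another class.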

How the data were processed

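Droplet single-nucleus RNA sequencing of 3 libraries gave raw UMI counts per gene and barcode, deposited by the authors without normalisation for 33696 features (26 symbols occur more than once and were kept as separate rows). Per the file headers the software was cellranger 8.0.1, whereas Cell Ranger 2.2.0, STAR and the build mm10 stand in the submitters' processing notes; which is right is unknown. No source used here says how strand and introns were handled. UMIs were summed over nuclei and scaled to CPM. Ratios carry exact conditional binomial intervals, shares Clopper-Pearson and CPM Poisson intervals, all at 95%. No doublet caller was run. Doublets were treated through alternatives that left nuclei out. Nuclei were thinned without replacement (seed 1). With 1 library per group no test was made. The 22 programme lists, 13 marker lists, the membership rule and the naming rule were chosen with earlier results of these data known. Named genes within a library were the 15 higher and 10 lower genes ranked by the interval bound nearest 1 in all 3 libraries. Between libraries up to 10 genes a direction were named (6 for aneurysm over room air), with at least 30 UMIs in the higher library and no nucleus holding over 20% of them. Other genes come from the lists. The comparators limited to macrophage-led nuclei were chosen after seeing the data. The procedure was tested on simulated data. Software was Python 3.11.15, numpy 2.4.6, scipy 1.17.1, pandas 2.3.3 and matplotlib 3.10.9.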

Additional observations from a re-analysis of the deposited data

Results flagged for a closer look

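Ctsc, which encodes cathepsin C, differed in opposite directions between the libraries in Mmp12-high nuclei and in macrophage-led others. In Mmp12-high nuclei its CPM ratio was 0.145 for aneurysm over smoke, whereas in macrophage-led others it was 2.15. For aneurysm over room air the ratios were 0.137 and 1.80. The aneurysm value rests on 3 UMIs from 3 nuclei, and with 1 library per group the difference was not tested. In macrophage-led others with F13a1 under the limit the ratios of Ctsc were 1.00 and 0.779, so the opposite direction for aneurysm over smoke was present only with F13a1-high nuclei included.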

How the results depend on the processing

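No paired analysis was possible because there was 1 library per group. Of share ratios, 48 of 60 alternative values lay within the counting interval, and 92 of 116 counts of genes within 1.5 times. The cause of the moves was not tested. Aneurysm over smoke as a share of all nuclei (0.116) was 0.073 with 3 of 6 macrophage genes, 0.207 thinned and 0.362 without nuclei with markers of another class (26, 147 and 226 Mmp12-high nuclei left in the aneurysm, smoke and room air libraries). Aneurysm over room air (0.117) was 0.081, 0.207 and 0.331. Smoke over room air (1.01) was 1.11, 0.913 without those nuclei and 1.10 with no mitochondrial limit. As a share of macrophage-gene nuclei, aneurysm over smoke was 0.609 thinned and 0.542 without those nuclei, and aneurysm over room air 0.581 thinned. Genes higher in all 3 libraries (120) were 55 with 3 of 6 genes, 40 thinned, 30 without those nuclei, 49 against macrophage-led others and 50 with F13a1 also under the limit. Genes lower (363) were 103, 98, 45, 88 and 44, and 200 with 20 expected UMIs and 239 without the deepest 10% of nuclei. Aneurysm over smoke, 172 higher and 302 lower genes were 74 and 167 without those nuclei. The higher count was 259 with 5 and 88 with 20 expected UMIs, and the lower 185 with median of ratios scaling. Smoke over room air, 1073 higher genes were 382 without those nuclei. Aneurysm over room air, 144 higher and 245 lower were 55 and 112 without them, 225 and 131 with median of ratios scaling, and the higher count was 236 with 5 and 72 with 20 expected UMIs. Of single genes, 1271 of 1870 values lay within the interval and 36 changed sign, as did 7 of 1648 list medians.

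Sign changes, as log2 ratios, came without those nuclei for the metalloprotease list (0.55 in smoke, 0.23 in room air), the protease inhibitor list (0.23 in room air), Sorbs2 (0.042) and Prdm16 (0.034) in room air, Sulf1 (0.11) in aneurysm and Slc25a18 (-0.78) for smoke over room air. Against macrophage-led others, and then with F13a1 under the limit, the metalloprotease list was 0.33 and 0.30 in smoke and the inhibitor list 0.024 and 0.031 in room air. In smoke the values were Eln 0.45 and 0.45, Mecom 0.70 and 0.70, Sorbs2 0.20 and 0.18, Prdm16 0.78 and 0.76, Bmp6 0.25 and 0.23, Pde3a 0.44 and 0.43, Sulf1 0.41 and 0.40, and Efna5 0.37 and 0.35. In room air they were Eln 0.022 and 0.029, Mecom 0.45 and 0.45, Sorbs2 0.82 and 0.82, Prdm16 0.43 and 0.42, Bmp6 0.60 and 0.60, Pde3a 0.074 and 0.074, Sulf1 0.41 and 0.41, and Efna5 0.75 and 0.75. Depth limits the aneurysm library, where a gene was not measured when fewer than 10 UMIs were expected on either side.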
